A study of Mus musculus with 6 samples.

Results

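Nearly all proteins of mitochondria are made in the cytosol and enter through a set of membrane machines, and the transcripts of 34 genes that encode these machines were examined in embryonic mouse hearts with a cardiomyocyte deletion of Mrps5. The 34 genes were listed by name, as known components or partners of the import complexes. All 34 were found by symbol among the 26191 genes of the expression table. By the complex they serve, 12 were grouped with the outer membrane, 8 with the intermembrane space and 14 with the inner membrane, and these groups take in the cytosolic Tomm34 (outer) and the matrix proteins Grpel1 and Grpel2 (inner). Ribosomal RNA-depleted, strand-specific RNA sequencing had been done on 3 Ctrl and 3 cKO heart libraries collected at embryonic day 12. Each library came from a pool of 5 hearts. The RNA sequencing methods of the paper, which do not mention embryos, describe mRNA purified on poly-T beads instead. By their labels, Ctrl embryos were Mrps5 fl/fl without Cre, and cKO embryos were Mrps5 fl/fl; cTNT-Cre littermates. Both groups would then carry 2 floxed alleles of Mrps5, the gene of a protein of the small mitochondrial ribosome subunit. A supplementary legend of the paper instead names the mutant hearts Mrps5 fl/+ with cTnT-Cre, and the sources used here do not settle this. Cre was driven by the cardiac troponin T promoter, which acts in cardiomyocytes, and other cell types of the heart keep the gene. Because the Ctrl group has no Cre, the effects of Cre and of the deletion cannot be told apart. Levels are given as FPKM, fragment counts scaled to transcript length and to the size of the library, and summed over the transcripts of a gene.

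The whole table bears on the import genes in a few ways. Mrps5 itself (ENSMUSG00000027374) had an FPKM of 9.65, 11.4 and 10.4 in Ctrl replicates 1, 2 and 3 and of 5.28, 7.41 and 10.4 in cKO replicates 1, 2 and 3, so the library labelled cKO replicate 3 was at the Ctrl level. Cardiomyocyte markers were abundant in every library, which fits the labelled tissue, and their summed FPKM was 7378 to 8649 in Ctrl and 5914 to 7259 in cKO, with 4 of 8 lower at an unadjusted p under 0.05. In whole hearts, fewer cells of a type and less RNA per cell cannot be told apart. Of 15 listed erythroid markers 12 were found, with 6 higher at an unadjusted p under 0.05, and these took 12.0% to 13.3% of the summed FPKM in Ctrl and 23.5%, 10.8% and 22.0% in cKO replicates 1, 2 and 3. The liver genes Alb, Afp and Apoa2 summed to 126, 270.3 and 18.7 FPKM in Ctrl replicates 1, 2 and 3 and to 82.0, 165 and 110.3 in cKO replicates 1, 2 and 3. Fits with the erythroid or the liver marker sum as a covariate were among the alternatives. Endothelial, epicardial, mesenchymal and macrophage marker sums overlapped between the groups, with 1 endothelial marker lower and 1 epicardial marker higher at an unadjusted p under 0.05. FPKM summed to 454692 to 515952 per library. Read numbers are not in the table, so the depth is unknown, and ratios of low values only hint that the other libraries were 1.15 to 1.62 times as deep as Ctrl replicate 1.

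Precursor proteins cross the outer membrane through the TOM complex, whose channel is Tomm40 and whose receptors are Tomm20, Tomm22 and Tomm70a. From there the SAM complex inserts barrel-shaped proteins into the outer membrane, the MIA pathway oxidizes and traps small proteins in the intermembrane space, and the small TIM chaperones escort hydrophobic proteins through that space. Carrier proteins enter the inner membrane through TIM22, and precursors with a presequence pass TIM23, where the PAM motor pulls them into the matrix. Heart muscle depends on this supply for its respiratory chain, and the proteins of the mitochondrial ribosome are themselves imported in this way.

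Transcripts of the import machinery were at nearly the same level in both groups. The summed FPKM of the 34 genes was 917, 952 and 947 in Ctrl replicates 1, 2 and 3, and 906, 932 and 943 in cKO replicates 1, 2 and 3, which overlap. On the log2(FPKM + 1) scale, with limma as the test and 13260 genes expressed at 1 FPKM or more in 3 or more libraries, all 34 genes could be tested. Their fold changes, cKO against Ctrl, ranged from -0.44 for Timm22 to 0.30 for Timm10. The median was -0.016 for the 34 genes and -0.021 for all genes tested. A median absolute difference of 0.08 was found for the import genes and of 0.12 for all genes tested, at median levels of 23.3 and 9.25 FPKM. The 95% interval of the difference lay within 1.5-fold in both directions for 32 of the 34 genes, or 94.1%, where 78.0% of all genes met this limit. The 2 exceptions were Timm22 and Tomm40l. No background at a like level was computed, so these shares do not show that import genes were steadier than other genes.

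**Figure D1:**
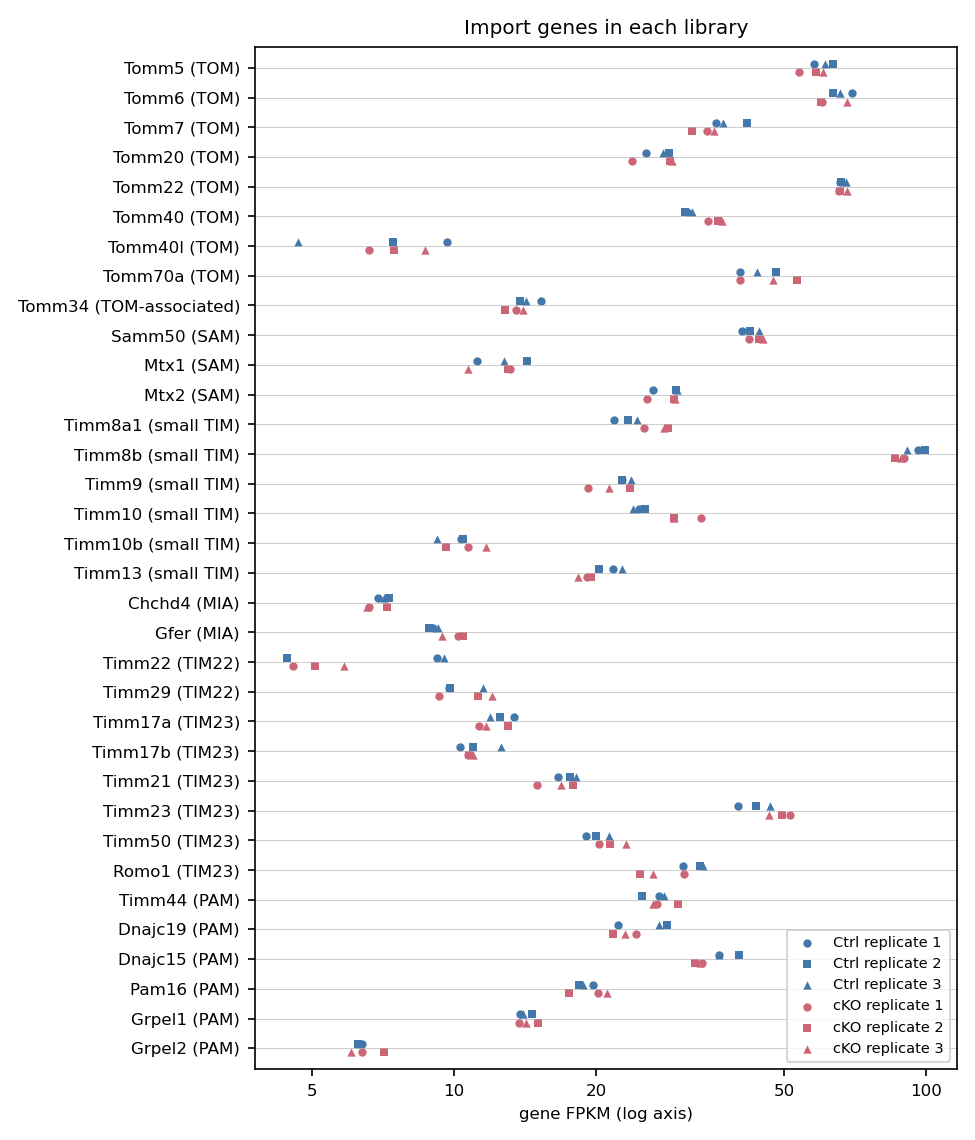
Gene FPKM on a log axis for the 34 import genes, with blue points for the 3 Ctrl and red points for the 3 cKO libraries and a marker shape for each replicate number. Values run from 4.42 for Timm22 to 99.4 for Timm8b, both in Ctrl replicate 2, and for most genes the blue and red points overlap.

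None of the 34 genes passed an adjusted p under 0.05 with limma and Benjamini-Hochberg adjustment over all genes, where 0.0830% of all genes did, and the smallest adjusted p was 0.186. At an unadjusted p under 0.05 there were 5 genes, or 14.7%, beside a background of 15.0% of all genes tested. Timm10, Timm8a1 and Tomm40 were higher in cKO (5.57% of all genes tested were called in that direction), and Romo1 and Dnajc15 were lower (9.43%). The values of the groups did not overlap in 8 genes, or 23.5%, beside a background of 20.8%. Of these, Timm10, Timm8a1, Tomm40 and Gfer were higher (7.74% of all genes tested) and Tomm7, Timm8b, Timm13 and Dnajc15 lower (13.0%). Both shares are close to the background. The split depended on the scaling of the libraries. After scaling by the median ratio of genes, or after removal of the erythroid genes, the count at an unadjusted p under 0.05 was 4 higher and 0 lower, with Timm23 added and Romo1 and Dnajc15 past the threshold no longer. Over all genes these scalings gave 6.89% and 7.25% higher, and 1113 of 13260 and 1060 of 13248 genes lower. The fold changes moved little, to -0.22 for Romo1 and -0.16 for Dnajc15 under both. Tomm7 and Timm8b then overlapped, and Timm23 was higher without overlap. Genes without overlap then numbered 5 higher (9.90% and 10.3% of all genes) and 2 lower (11.4% and 10.6%). Leaving out 1 library also moved the counts. Only 1 gene was higher without Ctrl replicate 1, Ctrl replicate 2, cKO replicate 2 or the library labelled cKO replicate 3, and 0 were lower without Ctrl replicate 3, cKO replicate 2 or cKO replicate 3. The count lower was 1 without Ctrl replicate 2 or cKO replicate 1. Over all genes the same settings gave 3.32% to 6.58% higher and 5.85% to 9.77% lower. Genes without overlap numbered 7 higher without cKO replicate 1 (13.2% of all genes), 8 lower without Ctrl replicate 1 (16.7%) and 7 lower without cKO replicate 2 (22.8%) or cKO replicate 3 (17.6%), and with 2 libraries against 3 more genes are apart in any case. Without cKO replicate 3, where 270 of all genes passed the adjusted threshold, 0 of the 34 did.

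**Figure D2:**
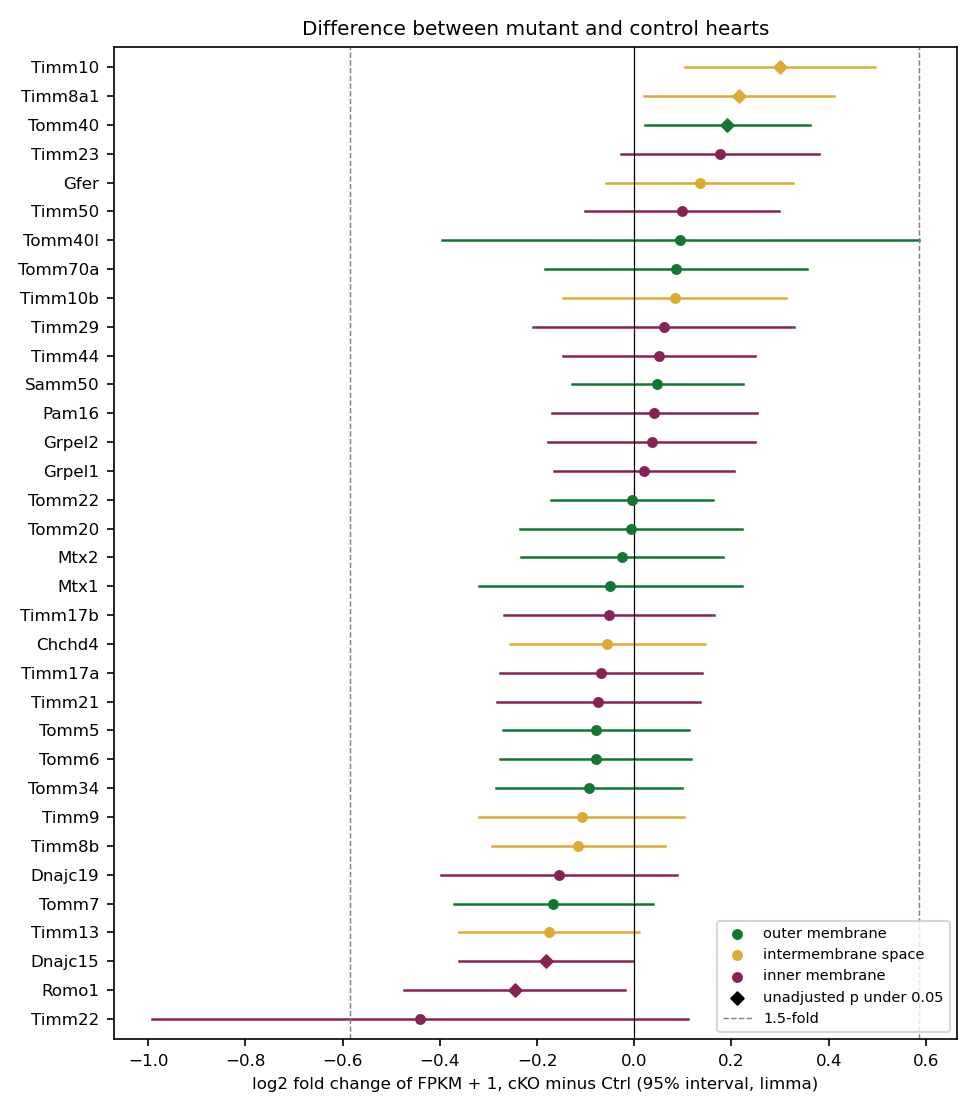
Difference between cKO and Ctrl on the log2(FPKM + 1) scale for each import gene, with its 95% interval from limma, colored by compartment. Diamonds mark the 5 genes with an unadjusted p under 0.05, dashed lines mark 1.5-fold, and all intervals but those of Timm22 and Tomm40l stay inside the dashed lines.

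Timm10, which pairs with Timm9 in the hexamer that escorts carrier proteins across the intermembrane space, had the smallest p of the 34 genes. Its FPKM was 24.6, 25.4 and 23.9 in Ctrl replicates 1, 2 and 3 and 33.4, 29.3 and 29.2 in cKO replicates 1, 2 and 3. Every cKO library was above every Ctrl library, and cKO replicate 1 was the highest. The means were 24.7 ± 0.768 and 30.6 ± 2.39 (SD, n = 3 each), a log2 fold change of 0.30 (SE 0.08, limma, adjusted p = 0.186). It was the one import gene with an unadjusted p under 0.05 under all 15 alternative settings. Its adjusted p ranged from 0.158 to 0.489 over these.

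Promoter sequences are shown for Timm10, the import gene with the smallest p, for Romo1, which had the smallest p among the import genes lower in cKO, and for Tomm22, whose level was nearly equal in both groups, so that start regions of genes whose levels differed in different ways can be compared. They come from RefSeq on the GRCm38.p6 build, which is not the mm9 build named for the deposited table, and no coordinate of the table was used. Each runs from 150 bases before to 30 bases after the transcription start, 5′ to 3′ on the plus strand, on which all 3 genes lie, at chr2:84826871-84827050 for Timm10, chr2:156144083-156144262 for Romo1 and chr15:79670718-79670897 for Tomm22. Capitals mark the letters CCGGAAG, a core of sites for the ETS factor GABPA, or their reverse complement, and where both overlap the capitals run on.
Timm10: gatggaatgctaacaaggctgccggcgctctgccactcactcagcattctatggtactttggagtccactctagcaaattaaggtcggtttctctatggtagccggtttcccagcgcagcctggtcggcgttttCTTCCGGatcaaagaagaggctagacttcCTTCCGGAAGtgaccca
Romo1: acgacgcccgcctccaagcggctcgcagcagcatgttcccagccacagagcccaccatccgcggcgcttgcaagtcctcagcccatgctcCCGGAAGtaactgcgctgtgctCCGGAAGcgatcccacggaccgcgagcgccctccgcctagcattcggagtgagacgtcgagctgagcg
Tomm22: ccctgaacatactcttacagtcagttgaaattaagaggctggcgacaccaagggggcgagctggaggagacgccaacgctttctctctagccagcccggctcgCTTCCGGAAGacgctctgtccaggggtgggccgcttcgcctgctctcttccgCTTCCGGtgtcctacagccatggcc
All 3 windows hold CCGGAAG more than once.

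GABPA and NRF1 are known as activators of nuclear genes for mitochondrial proteins. Of the 34 import genes, 30 matched a RefSeq promoter window, which reaches from 250 bases before to 50 after the start, and each motif was searched on both strands. CCGGAAG was in 12 of the 30, or 40%, beside 20.5% of 9582 tested genes with a window and 9.93% of 27025 symbols in all. The 12 were Tomm22, Tomm70a, Tomm34, Mtx1, Mtx2, Timm8b, Timm10, Timm10b, Timm29, Timm23, Romo1 and Grpel1. Timm10 and Romo1 held it, and the windows of Tomm40, Timm8a1 and Dnajc15 did not. The YY1 motif was in Mtx1 and Timm50 (6.67% of the 30, and 2.49% of tested genes), and TNAAGGTCA, the site of a single ERRA molecule, was in Timm8b (3.33%, and 0.856%). The NRF1 motif (2.33% of tested genes), the C/EBP-ATF element TGATGNAAN (2.55%) and the CREB motif TGACGTCA (3.65%) were found in 0 of the 30 genes. These are matches of letters and were not tested.

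The channel of the outer membrane, Tomm40, was slightly higher in cKO. Its FPKM was 31.1, 30.9 and 31.8 in Ctrl replicates 1, 2 and 3 and 34.4, 36.3 and 36.9 in cKO replicates 1, 2 and 3, without overlap. The means were 31.3 ± 0.498 and 35.9 ± 1.31 (SD, n = 3 each), with a log2 fold change of 0.19 (SE 0.07, limma, adjusted p = 0.290). Leaving out any 1 library other than cKO replicate 1 took its unadjusted p above 0.05, with an adjusted p of 0.325 to 0.586. Tomm40l, a paralog of the channel, varied among Ctrl libraries more than between groups. It had 9.68, 7.44 and 4.68 FPKM in Ctrl replicates 1, 2 and 3 and 6.61, 7.46 and 8.68 in cKO replicates 1, 2 and 3. Its fold change of 0.09 had a wide 95% interval of -0.40 to 0.59. The fold change was 0.30 without Ctrl replicate 1, and its sign turned, to -0.15, without Ctrl replicate 3.

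The receptors stayed close to the Ctrl level. Tomm22, the central receptor, had 66.5 ± 0.965 FPKM in Ctrl and 66.3 ± 1.54 in cKO (SD, n = 3 each), and its 95% interval on the log2 scale was -0.17 to 0.16. Tomm20, which binds presequences, had 27.2 ± 1.58 and 27.2 ± 2.88, and Tomm70a, which receives carrier proteins from chaperones, 44.1 ± 3.84 and 47.0 ± 6.52. Their intervals were wider, at -0.24 to 0.22 for Tomm20 and -0.18 to 0.36 for Tomm70a. The small TOM subunits, which steady the channel, were each lower on average. Tomm7 had 35.9, 41.8 and 37.1 FPKM in Ctrl replicates 1, 2 and 3 and 34.4, 32.0 and 35.5 in cKO replicates 1, 2 and 3. The groups did not overlap, although Ctrl replicate 1 and cKO replicate 3 were close, and the log2 fold change was -0.17 (SE 0.09, limma, adjusted p = 0.421). Tomm5 had 60.8 ± 2.90 and 57.5 ± 3.44, and Tomm6 66.1 ± 3.11 and 62.6 ± 4.52, both with overlap. The cytosolic cochaperone Tomm34 had 15.3, 13.8 and 14.2 FPKM in Ctrl replicates 1, 2 and 3 and 13.6, 12.8 and 14.001 in cKO replicates 1, 2 and 3, with a log2 fold change of -0.09 (SE 0.08, limma, adjusted p = 0.644).

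The SAM complex, which folds barrel proteins such as Tomm40 into the outer membrane, had 3 genes on the list, and all overlapped between the groups. Samm50, its channel, had 40.7, 42.3 and 44.2 FPKM in Ctrl replicates 1, 2 and 3 and 42.1, 44.3 and 45.1 in cKO replicates 1, 2 and 3. Its log2 fold change was 0.05 (SE 0.08, limma, adjusted p = 0.815). Its partners Mtx1 and Mtx2 had means of 12.7 and 28.5 in Ctrl and 12.3 and 28.1 in cKO. Mtx1 ran from 10.7 to 14.3 over the 6 libraries and Mtx2 from 25.6 to 29.7.

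The small TIM genes of the intermembrane space did not differ from Ctrl in 1 direction. Timm8a1, the mouse counterpart of the human deafness-dystonia gene, had 21.8, 23.4 and 24.4 FPKM in Ctrl replicates 1, 2 and 3 and 25.3, 28.3 and 27.8 in cKO replicates 1, 2 and 3. All cKO libraries were higher, with a log2 fold change of 0.22 (SE 0.09, limma, adjusted p = 0.295). Its unadjusted p was above 0.05 without Ctrl replicate 1, Ctrl replicate 2, cKO replicate 2 or cKO replicate 3, where the adjusted p was 0.368 to 0.638. Timm13, its partner in the second hexamer of this space, was lower in every cKO library. It had 21.7, 20.3 and 22.6 FPKM in Ctrl replicates 1, 2 and 3 and 19.1, 19.5 and 18.3 in cKO replicates 1, 2 and 3, with a log2 fold change of -0.18 (SE 0.08, limma, adjusted p = 0.353).

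Timm8b, a paralog of Timm8a1 and the most abundant of the 34 transcripts per length, had 96.2, 99.4 and 90.9 FPKM in Ctrl replicates 1, 2 and 3 and 89.6, 86.0 and 88.6 in cKO replicates 1, 2 and 3. The gap between the groups was narrow, and the log2 fold change was -0.12 (SE 0.08, limma, adjusted p = 0.530). Timm9, the partner of Timm10, had 22.6, 22.7 and 23.7 in Ctrl replicates 1, 2 and 3 and 19.2, 23.5 and 21.3 in cKO replicates 1, 2 and 3. These overlapped, with a difference of -0.11 on the log2 scale. Timm10b, which ties the chaperones to TIM22, had 9.998 ± 0.689 and 10.7 ± 1.04 (SD, n = 3 each).

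In the MIA pathway, Chchd4, the oxidoreductase that introduces disulfide bonds, had 6.89, 7.27 and 7.12 FPKM in Ctrl replicates 1, 2 and 3 and 6.61, 7.22 and 6.55 in cKO replicates 1, 2 and 3, with overlap. Gfer, the sulfhydryl oxidase that reoxidizes Chchd4, had 9.04, 8.86 and 9.25 in Ctrl replicates 1, 2 and 3 and 10.2, 10.5 and 9.45 in cKO replicates 1, 2 and 3. All cKO libraries of Gfer were above Ctrl, with a log2 fold change of 0.13 (SE 0.08, limma, adjusted p = 0.490).

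Timm22, the channel of the carrier translocase, had the most negative log2 difference of the 34 genes and the widest interval on that scale. Its FPKM was 9.21, 4.42 and 9.52 in Ctrl replicates 1, 2 and 3 and 4.57, 5.09 and 5.85 in cKO replicates 1, 2 and 3. Ctrl replicate 2 lay below all cKO libraries, and the other 2 Ctrl libraries above them. The means were 7.71 ± 2.86 and 5.17 ± 0.645 (SD, n = 3 each), with a log2 fold change of -0.44 (SE 0.24, limma, adjusted p = 0.427). Without Ctrl replicate 2 the fold change was -0.75, with an unadjusted p under 0.05 and an adjusted p of 0.126, and it was -0.30 without Ctrl replicate 1 and -0.27 without Ctrl replicate 3, both with an unadjusted p above 0.05. Its interval of -0.99 to 0.11 does not show that the level was kept. Timm29, another subunit of TIM22, had 10.4 ± 1.02 and 10.9 ± 1.43.

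In the TIM23 complex, Romo1, a small inner membrane protein that works with the presequence translocase, was lower in cKO on average. Its FPKM was 30.6, 33.2 and 33.6 in Ctrl replicates 1, 2 and 3 and 30.8, 24.8 and 26.4 in cKO replicates 1, 2 and 3. Its value in cKO replicate 1 lay just above Ctrl replicate 1, so the groups overlapped. The main transcript row alone, ENSMUST00000088610, was lower without overlap. That row had 28.6, 28.9 and 30.6 in Ctrl replicates 1, 2 and 3 and 27.2, 21.8 and 24.7 in cKO replicates 1, 2 and 3. For the gene, the means were 32.5 ± 1.66 and 27.3 ± 3.11 (SD, n = 3 each), with a log2 fold change of -0.25 (SE 0.10, limma, adjusted p = 0.303). Its unadjusted p was above 0.05 without Ctrl replicate 2, Ctrl replicate 3, cKO replicate 2 or cKO replicate 3, where the adjusted p was 0.408 to 0.510. The channel Timm23 had 43.4 ± 3.42 and 49.2 ± 2.58 FPKM, with a log2 fold change of 0.18 (SE 0.09, limma, adjusted p = 0.392), and its unadjusted p was under 0.05 only with the 2 other scalings, where the adjusted p was 0.325 and 0.296.

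The other TIM23 genes overlapped between the groups. Timm17a and Timm17b are alternative partners of Timm23. Timm17a had 13.4, 12.5 and 11.9 FPKM in Ctrl replicates 1, 2 and 3 and 11.3, 13.0 and 11.7 in cKO replicates 1, 2 and 3. Timm17b had 10.3, 10.9 and 12.6 in Ctrl replicates 1, 2 and 3 and 10.7, 10.7 and 10.99 in cKO replicates 1, 2 and 3. Timm50, the receptor that takes presequences over from TOM, had 20.1 ± 1.17 and 21.6 ± 1.43, and Timm21, which links the complex to TOM, 17.5 ± 0.780 and 16.6 ± 1.43 (SD, n = 3 each).

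In the PAM motor, Dnajc15, a J protein of the inner membrane, was lower in every cKO library. It had 36.4, 40.1 and 36.4 FPKM in Ctrl replicates 1, 2 and 3 and 33.5, 32.3 and 33.2 in cKO replicates 1, 2 and 3. The means were 37.6 ± 2.13 and 33.0 ± 0.616 (SD, n = 3 each), with a log2 fold change of -0.18 (SE 0.08, limma, adjusted p = 0.327). Its unadjusted p was above 0.05 when any 1 library was left out, with an adjusted p of 0.379 to 0.573. Its paralog Dnajc19, a gene of human cardiomyopathy with ataxia, had 22.2, 28.2 and 27.1 in Ctrl replicates 1, 2 and 3 and 24.3, 21.8 and 23.1 in cKO replicates 1, 2 and 3. These overlapped because Ctrl replicate 1 was low, and without it the log2 fold change moved from -0.15 to -0.26 with an unadjusted p under 0.05 and an adjusted p of 0.507. Without Ctrl replicate 2 it was -0.089.

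The remaining motor genes had like levels in both groups. The nucleotide exchange factor Grpel1 had 13.8, 14.6 and 13.98 FPKM in Ctrl replicates 1, 2 and 3 and 13.7, 15.1 and 14.2 in cKO replicates 1, 2 and 3. Its paralog Grpel2 had 6.39, 6.26 and 6.32 in Ctrl replicates 1, 2 and 3 and 6.40, 7.10 and 6.05 in cKO replicates 1, 2 and 3. Timm44, which anchors the motor to the channel, had 26.7 ± 1.49 and 27.7 ± 1.84, and Pam16, which restrains the J proteins, 19.0 ± 0.639 and 19.6 ± 1.87 (SD, n = 3 each).

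Outer and inner membrane genes were then set beside each other. The median log2 fold change was -0.016 for the 12 outer membrane genes, 0.014 for the 8 genes of the intermembrane space and -0.016 for the 14 inner membrane genes. An unadjusted p under 0.05 was found for 1 of 12 outer membrane genes (8.33%), 2 of 8 intermembrane space genes and 2 of 14 inner membrane genes (14.3%), beside 15.0% of all genes tested. The groups did not overlap in 2 outer membrane genes (16.7%), 5 intermembrane space genes (62.5%) and 1 inner membrane gene (7.14%), beside 20.8% of all genes. Of the 5, Timm8a1, Timm10 and Gfer were higher and Timm8b and Timm13 lower. Under the 2 other scalings Timm8b and the outer membrane gene Tomm7 overlapped, and the inner membrane gene Timm23 was higher without overlap. The outer membrane count then fell and the inner membrane count rose, so which was larger depended on the scaling. Over all genes these scalings gave 9.90% and 10.3% higher and 11.4% and 10.6% lower without overlap. The mean log2 value of outer membrane genes exceeded that of inner membrane genes by 0.78, 0.85 and 0.67 in Ctrl replicates 1, 2 and 3, and by 0.77, 0.82 and 0.84 in cKO replicates 1, 2 and 3. The group means of this gap, 0.77 ± 0.09 and 0.81 ± 0.04 (SD, n = 3 each), differed by 0.05, less than the spread of the Ctrl libraries. Genes of the intermembrane space were 0.03, 0.05 and 0.03 above the Ctrl mean in cKO replicates 1, 2 and 3, a description with no test.

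**Figure D3:**
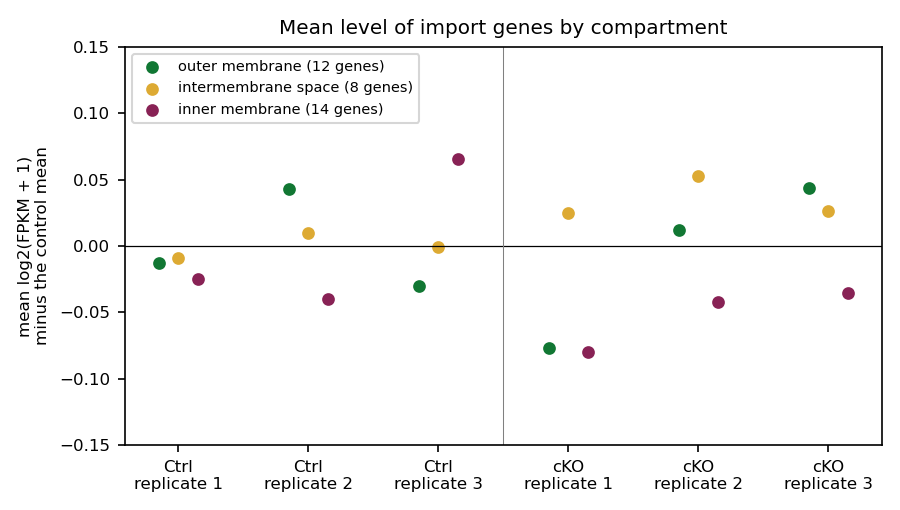
Mean log2(FPKM + 1) of the outer membrane, intermembrane space and inner membrane genes in each library, minus the mean of the 3 Ctrl libraries for that compartment. Every point lies within 0.08 of 0, and the outer and inner membrane points of cKO replicate 1 are the lowest.

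The log2 ratio of FPKM + 1 of 2 genes within a library depends little on how that library was scaled, except through the 1 added at low levels, and 7 pairs of paralogs or partners were compared. With 3 libraries against 3, the exact two-sided permutation test cannot go below p = 0.1, so none of the pairs could pass the threshold. The ratios of 4 pairs overlapped between the groups. The log2 ratio of Timm17a to Timm17b differed by -0.016 between groups (exact permutation p = 1), that of Grpel1 to Grpel2 by -0.016 (exact permutation p = 0.6), that of Dnajc15 to Dnajc19 by -0.028 (exact permutation p = 0.9) and that of Tomm40l to Tomm40 by -0.10 (exact permutation p = 0.8).

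In the other 3 pairs the groups did not overlap, and each reached 0.1, the smallest p the design allows, with an adjusted p of 0.233 over the 7 pairs. The log2 ratio of Timm9 to Timm10 was -0.12, -0.16 and -0.011 in Ctrl replicates 1, 2 and 3 and -0.77, -0.30 and -0.44 in cKO replicates 1, 2 and 3, with means of -0.10 ± 0.08 and -0.50 ± 0.24 (SD, n = 3 each). It ran lower in all 3 cKO libraries, and the difference was -0.41, or -0.28 without cKO replicate 1. The ratio of Timm8a1 to Timm8b was -2.09, -2.04 and -1.85 in Ctrl replicates 1, 2 and 3 and -1.79, -1.57 and -1.64 in cKO replicates 1, 2 and 3, a difference of 0.33. The ratio of Chchd4 to Gfer was -0.35, -0.25 and -0.34 in Ctrl replicates 1, 2 and 3 and -0.56, -0.48 and -0.47 in cKO replicates 1, 2 and 3, a difference of -0.19. Timm8a1 and Timm13 form a hexamer together, and their ratio, chosen after its values were seen and so not tested, was 0.0060, 0.20 and 0.10 in Ctrl replicates 1, 2 and 3 and 0.39, 0.52 and 0.58 in cKO replicates 1, 2 and 3.

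**Figure D4:**
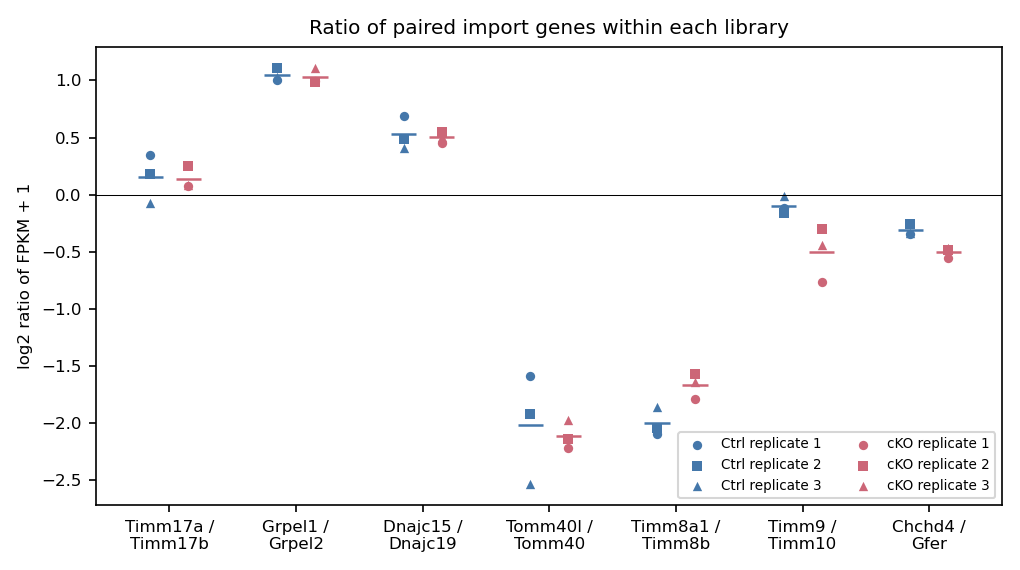
Log2 ratio of FPKM + 1 for 7 pairs of import genes in each library, with Ctrl in blue, cKO in red and group means as short lines. The blue and red points are apart for Timm8a1 to Timm8b, Timm9 to Timm10 and Chchd4 to Gfer and overlap for the other 4 pairs.

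A further 21 genes that act in import or just after it (presequence peptidases, matrix chaperones, cytosolic chaperones and other insertases) were examined for comparison, and 19 could be tested. The other 2, Tomm20l and Timm8a2, were under the limit on low values. In this list 1 gene, or 5.26%, had an unadjusted p under 0.05, beside 15.0% of all genes tested, and 0 an adjusted p under 0.05. It was Hspa9, the mitochondrial Hsp70 that drives the PAM motor. Its FPKM was 112, 127 and 126 in Ctrl replicates 1, 2 and 3 and 205, 226 and 145 in cKO replicates 1, 2 and 3. Every cKO library was higher, the library labelled cKO replicate 3 the least. The means were 122 ± 8.25 and 192 ± 42.2 (SD, n = 3 each), with a log2 fold change of 0.63 (SE 0.16, limma, adjusted p = 0.162). Without cKO replicate 3 it was 0.82 with an adjusted p of 0.0075, and leaving out any other library gave 0.50 to 0.66 with an adjusted p of 0.211 to 0.460. Of the 6 motor genes described above, Timm44, Pam16, Grpel1 and Grpel2 had log2 fold changes of 0.02 to 0.05, Dnajc15 of -0.18 and Dnajc19 of -0.15. The matrix chaperonin genes Hspd1 and Hspe1 had fold changes of 0.16 and 0.03, and the presequence peptidase subunits Pmpca and Pmpcb of 0.03 and 0.01.

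The gene sums hide shifts between transcripts that the deposited table lists separately. The 34 genes had 82 transcript rows, and 17 genes had 1 row and 17 several. The shares of the 2 main rows of Tomm5 varied among libraries of both groups, with the same row the larger in all 6. ENSMUST00000107810 had 39.5, 42.0 and 55.5 FPKM in Ctrl replicates 1, 2 and 3 and 36.2, 53.6 and 43.5 in cKO replicates 1, 2 and 3, and ENSMUST00000107808 had 17.4, 20.7 and 5.26 and then 16.8, 4.73 and 16.1. The sum stayed between 53.7 and 63.6. Tomm40, too, had 2 large rows whose shares differed between libraries, and its most abundant row alone gave a fold change of 0.13 with an adjusted p of 0.810.

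Timm22 differed by row. Its main row, ENSMUST00000021203, had 7.24, 3.49 and 7.72 FPKM in Ctrl replicates 1, 2 and 3 and 2.80, 3.22 and 3.65 in cKO replicates 1, 2 and 3, with a log2 fold change of -0.70, an unadjusted p under 0.05 and an adjusted p of 0.376 (limma). A short row of the same gene, ENSMUST00000152183, had 1.46, 0.751 and 1.40 in Ctrl replicates 1, 2 and 3 and 1.75, 1.69 and 2.07 in cKO replicates 1, 2 and 3, the opposite direction. In Timm10b, ENSMUST00000058333 was at 1.52, 1.68 and 2.03 in Ctrl replicates 1, 2 and 3 and at 2.97, 2.93 and 3.89 in cKO replicates 1, 2 and 3, without overlap, while ENSMUST00000151193 was lower in every cKO library. Other rows lay without overlap too, lower in cKO for Tomm6, Timm9, Timm13, Timm17a, Romo1 and Timm22 and higher for Timm10. The share over all transcript rows was not computed. With the most abundant row of each gene alone, 8.04% of all genes were higher and 11.4% lower without overlap. The rows named here were picked after their values were seen and carry no test beyond the one given.

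**Figure D5:**
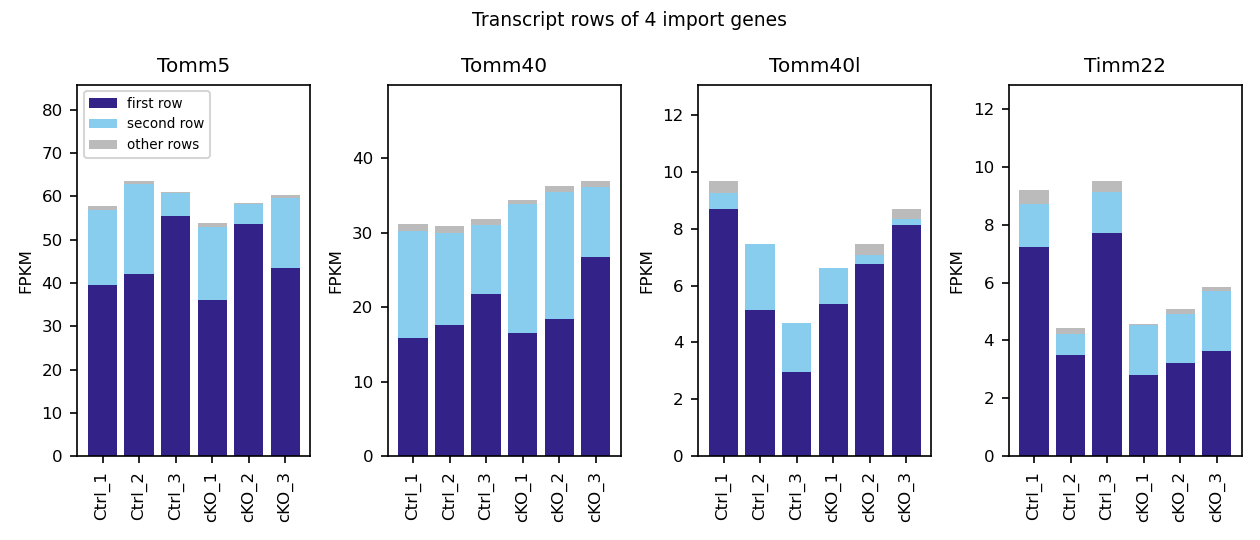
FPKM of the transcript rows of Tomm5, Tomm40, Tomm40l and Timm22 in each library, stacked from 0 with the row of highest mean at the bottom. The shares of the Tomm5 rows vary while the bar height stays between 53.7 and 63.6, and the Timm22 bar of Ctrl replicate 2 is as short as those of the cKO libraries.

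Sequence features limit how surely some levels belong to 1 gene. The main transcripts of the import genes were short, with a median length of 1573 bases, from 518 in Timm8b to 7280 in Timm17a, where 12112 of the tested genes had a median of 2921. In the GENCODE M21 transcripts, 5 of the 34 genes (Dnajc19, Pam16, Timm10b, Timm23 and Tomm6) had a near-identical match under another gene name, here called a copy. The limit was at least 95% identity over at least 50% of the main transcript, and the levels of these genes are uncertain. Whether a match shares its place in the genome with the import gene was not checked, so some may not be separate copies. For 3 of them a copy was listed in the table. Gm10273, which matched 95.6% of the Timm23 transcript at 99.9% identity, had 0.830, 11.2 and 4.19 FPKM in Ctrl replicates 1, 2 and 3 and 1.07, 22.3 and 14.5 in cKO replicates 1, 2 and 3. Its level varied widely within each group. The sum of Timm23 and Gm10273 was 48.8 ± 7.26 in Ctrl and 61.8 ± 9.62 in cKO (SD, n = 3 each), with overlap. Gm9803, a copy of Pam16, and Gm45799, a copy of Timm10b, had group means of 1.26 to 2.55 FPKM.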

How the data were processed

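RNA from 3 Ctrl and 3 cKO pools of embryonic hearts was sequenced, and samples were grouped by their labelled genotype. The authors deposited 1 table of FPKM values, 1 value per transcript and library. The submitters' processing notes name Bowtie2 2.2.8, HISAT2, StringTie 1.3.1, Cuffdiff 2.1.1 and mm9, without roles, and the annotation release is not given in the sources used here. The paper describes FPKM as allowing for depth and for the length of the gene. Which measure of library size entered the deposited values is not given in the sources used here. The expression table has 6 library columns, and its transcript values were summed per gene. With 1 added, log2 values of genes with FPKM of at least 1 in at least 3 libraries were compared with limma 3.58.1 (R 4.3.3; empirical Bayes with a mean trend, Benjamini-Hochberg adjustment over all genes), first tested on simulated data. A difference on this scale understates that of low genes. With 3 pools a group, p-values measure the spread between pools. Pair ratios used exact permutation tests over libraries. Copies were sought with blastn 2.17.0. Alternatives were a pseudocount of 0.1, no filter, a mean FPKM of at least 5, 2 scalings, erythroid or hepatocyte covariates, the most abundant transcript, a replicate block and leaving out each library. Members with an unadjusted p under 0.05 or without overlap, the smallest-p member of each complex and both genes of each pair are given by library, and of limma only adjusted p-values are printed. The members and lists were chosen with earlier results of these data known.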

Additional observations from a re-analysis of the deposited data

How the results depend on the processing

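The count of import genes with an adjusted p under 0.05 was 0 under every one of the 15 alternatives. All 5 genes with an unadjusted p under 0.05 (3 higher, 2 lower) kept their direction under these, and p stayed under 0.05 in 15 of 15 for Timm10, 10 for Timm8a1, 7 each for Tomm40 and Romo1 and 3 for Dnajc15. Over all genes the adjusted threshold was passed by 11, and by 4 to 270 under the alternatives, 121 without cKO replicate 2 and 270 without cKO replicate 3. The count lower was 0 with either scaling (1113 of 13260 and 1060 of 13248 genes in all), and 1 with a mean FPKM of at least 5 (7.92% of all genes) or with the erythroid covariate (5.22%). A hepatocyte covariate, added after the data were seen, left 1 higher (4.49% of all genes) and 0 lower (8.24%). The log2 fold changes of Tomm40, Timm8a1, Romo1 and Dnajc15 were then 0.19, 0.22, -0.23 and -0.19, near the main values, each with an unadjusted p above 0.05. Genes lower without overlap numbered 2 with either scaling (11.4% and 10.6% of all genes) and 6 with the most abundant transcript alone (11.4%). Those higher without overlap numbered 5 with either scaling (9.90% and 10.3%) and 3 with the most abundant transcript alone (8.04%). At the unadjusted threshold 3 were lower with no filter (7.73%) and 3 with the most abundant transcript alone (7.22%). Leaving out 1 library gave 1 to 3 higher (3.32% to 6.58% of all genes) and 0 to 2 lower (5.85% to 9.77%) at the unadjusted threshold, and 4 to 7 higher (10.4% to 14.9%) and 4 to 8 lower (16.7% to 22.8%) without overlap. The median fold change of the 34 genes was 0.0069 with median-ratio scaling, 0.0088 without erythroid genes and -0.047 to 0.012 leaving out 1 library. That of the 8 intermembrane space genes was 0.035 and 0.037 with these scalings, -0.0043 with the erythroid covariate, 0.068 with the most abundant transcript alone and -0.011 to 0.037 leaving out 1 library. Apart from some of the values with 1 library left out, these lie further from the main medians (-0.016 and 0.014) than 1 SD of the Ctrl libraries' mean log2 values (0.017 and 0.0095), though for the 34 genes the SD of the cKO libraries was 0.033, and the cause was not tested. Whether replicate numbers pair the libraries is not known, and the main fit treated them as unpaired. Deviations of same-numbered libraries correlated at 0.217, 0.110 and 0.090, each the best match of its number, a hint from the data only. With the replicate number as a block the counts were 3 higher (5.75% of all genes) and 0 lower (1458 of 13260). Romo1 and Dnajc15 kept their log2 fold changes of -0.25 and -0.18 with this block, while their unadjusted p rose above 0.05. For the pair ratios, an exact sign-flip test by replicate number cannot go below p = 0.25. Where leaving out a library left 2 in a group, limma pooled the spread. Depth is unknown, so counting error could not be set against these differences.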
